A study of Rattus norvegicus with 17 samples.

Results

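A set of 10 genes of Wnt signalling were followed: the Frizzled receptor genes Fzd1, Fzd2, Fzd4, Fzd7 and Fzd8, the secreted Frizzled-related inhibitor genes Sfrp1, Sfrp2 and Sfrp4, and the target genes Axin2 and Lef1. A gene was measured through every array probe set (a group of probes read as 1 value) that the platform annotation assigns to that gene alone. Of the 10 genes, 9 had such a probe set, out of the genes of 20832 single-gene probe sets, and these 9 were covered by 15 probe sets. No probe set of the annotation used here names Fzd7 alone, and its expression was not analysed here. A filter on low values, described below, left 13 of the 15 probe sets and all 9 measured genes.

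The tissue was the gubernaculum, the fetal ligament that anchors the testis, taken at gestational day 17 from male fetal rats of the Long Evans strain. For each biological replicate, 2 gubernaculum bulbs were cultured for 24 h in control medium with charcoal-stripped serum and an insulin-transferrin-selenium supplement, which all groups received, and then for 24 h more without hormone (control, n = 6) or with insulin-like 3 (Insl3) at 10 nM (n = 3) or 100 nM (n = 6). Insl3 is the testicular peptide hormone that drives gubernaculum growth. The 10 nM group had 5 arrays, of which the submitters set aside replicates 4 and 5 as outliers, and the same 15 of 17 arrays were compared here. An RNA integrity number of 10 is given for every array except 10 nM replicates 1 and 2, which have none. The replicates are called biological, but the labels do not say whether they came from separate fetuses or litters, so p-values measure only the spread between these arrays.

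Values are GCRMA log2 expression values on 1 Affymetrix array per replicate, so a difference of 1 unit is a 2-fold difference, and their number, rather than read depth, limits the precision. Several markers of the tissue were high: in controls the mesenchymal gene Pdgfra was at 13.30, Col1a1 at 14.90 and Hoxa10 at 12.14, and the myogenic gene Myog at 14.85. Other listed markers were lower, with Twist2 at 4.95, Tbx18 at 6.35 and the muscle gene Musk at 3.24. The listed mesenchymal gene Esr1 did not pass the filter on low values. The Insl3 receptor gene Rxfp2 has no single-gene probe set in the annotation used here. Blood cell markers differed between groups, since the 9 erythroid markers averaged 8.73 ± 0.99 in the controls (SD, n = 6), 8.27 ± 0.79 with 10 nM Insl3 (n = 3) and 6.45 ± 0.91 with 100 nM (n = 6). In whole tissue, fewer cells of a type and less RNA per cell cannot be told apart.

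Wnt proteins are secreted ligands that bind Frizzled receptors, proteins that span the membrane repeatedly, together with the co-receptors Lrp5 and Lrp6. In the canonical branch, binding stops the Axin, Apc and Gsk3 complex from destroying beta-catenin, which then enters the nucleus and works with transcription factors of the TCF/LEF family, Lef1 among them. Sfrp proteins carry a Frizzled-like cysteine-rich domain and bind Wnt proteins outside the cell. Axin2 is a widely used target of the canonical branch and feeds back on it as an inhibitor, and Wnt and beta-catenin signalling is known to take part in gubernaculum development.

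At 100 nM, Fzd1 and Lef1 rose and the other 7 measured members did not pass the test. The test was limma over 18938 probe sets with Benjamini-Hochberg adjustment at 0.05, read for each gene from its probe set with the highest mean. The 2 of 9 that rose compare with 8.15% of all 10665 genes that rose, and the 0 of 9 that fell with 3.98% that fell. At 10 nM, Fzd1 and Lef1 rose again, against 5.54% of genes higher, and Axin2 fell, against 3.13% of genes lower. Between the doses, Axin2 was the 1 member that differed, being higher at 100 nM than at 10 nM, where 0.628% of genes were higher and 0.15% lower. The median log2 change of the 9 members was 0.07 at 100 nM and 0.05 at 10 nM, beside 0.02 and 0.06 over all genes. With so few members, these shares do not set the group apart from the background. The 2 comparisons with control share the same 6 control arrays.

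**Figure D1:**
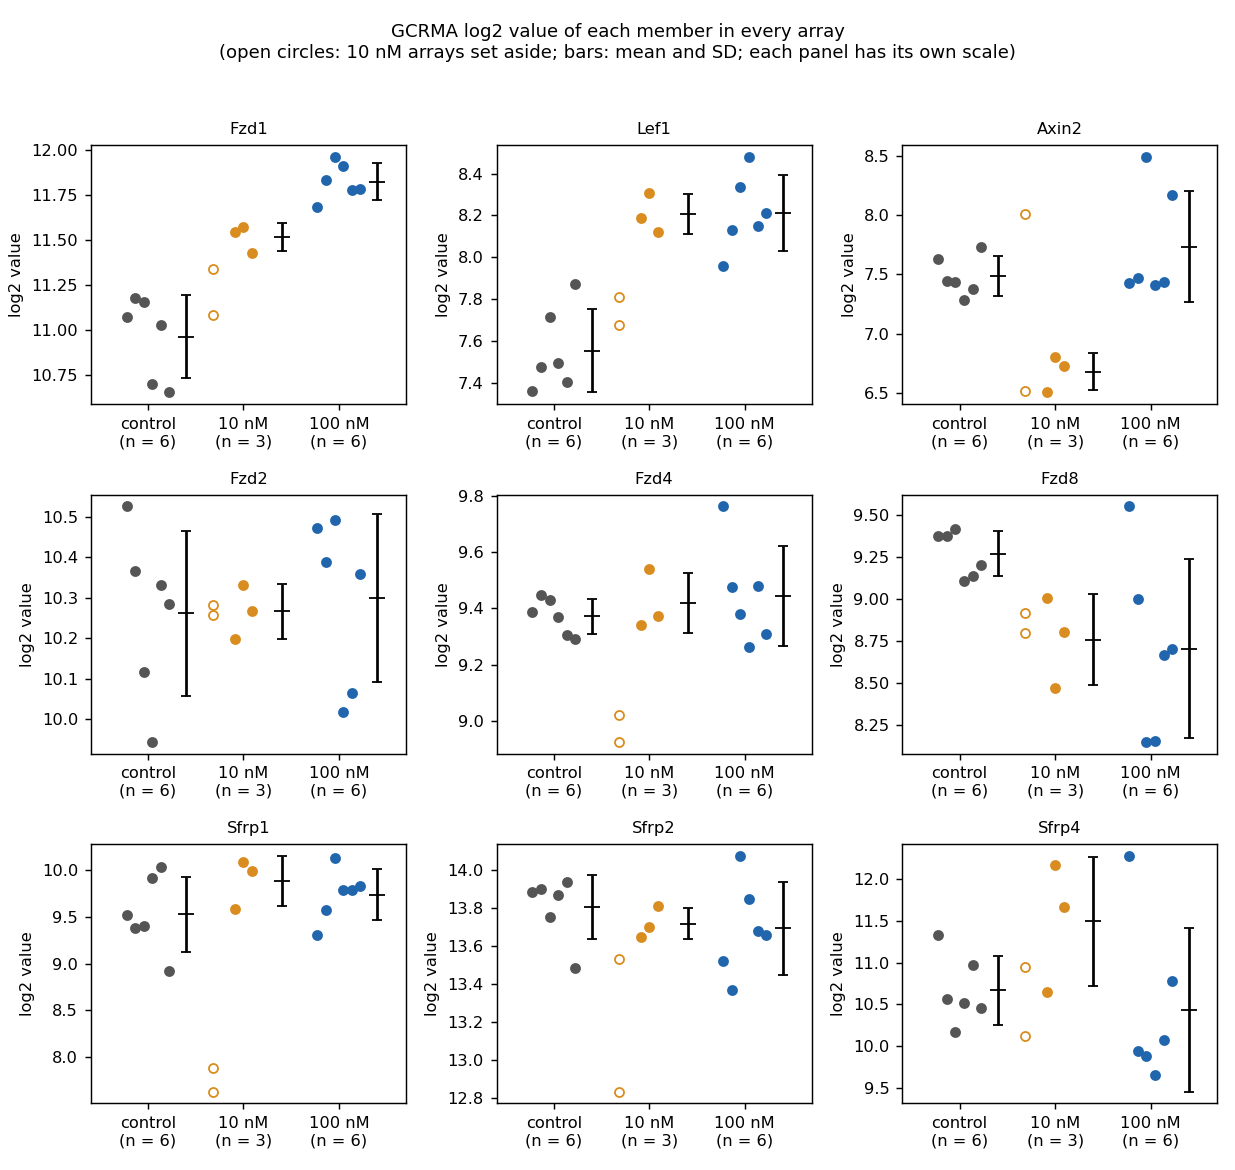
The GCRMA log2 value of the 9 measured genes is plotted for every array, with the groups on the x axis, the mean and SD beside the points, and open circles for the 2 arrays set aside by the submitters. Fzd1 and Lef1 are higher in all Insl3 arrays compared than in all controls, and Axin2 is lower in the 3 arrays at 10 nM, between 6.50 and 6.80, than in any other array compared.

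Fzd1 encodes a Frizzled receptor and rose at both doses. Its log2 value in controls ran from 10.65 to 11.17 with a median of 11.05. At 10 nM the 3 arrays read 11.54, 11.57 and 11.43, and at 100 nM they ran from 11.68 to 11.96 with a median of 11.81. Among the arrays compared the 3 groups did not overlap, with all 10 nM arrays above all controls and all 100 nM arrays above all 10 nM arrays. The share of all genes whose groups separate was not computed, so for this and other genes a separation is a description. Groups can also separate without a call, as those of Fzd8 did at 10 nM against control (adjusted p = 0.228). Of the 10 nM arrays set aside, replicate 4 read 11.08, within the control range, and replicate 5 read 11.34, above every control. The rise was 1.82-fold at 100 nM (log2 change 0.86 ± 0.09, SE; adjusted p = 7.16e-05) and 1.47-fold at 10 nM (0.55 ± 0.12; adjusted p = 0.0071). The step between the doses was 0.31 log2 units (95% confidence interval 0.06 to 0.56) and did not pass the adjusted test (adjusted p = 0.255, unadjusted p = 0.0183).

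Lef1, the TCF/LEF family transcription factor gene, rose at both doses by the probe set that stands for it. In controls it ran from 7.36 to 7.87 with a median of 7.48. At 10 nM the arrays read 8.19, 8.31 and 8.12, and at 100 nM they ran from 7.96 to 8.48 with a median of 8.18. Every Insl3 array compared lay above every control, while the doses overlapped. The 2 arrays at 10 nM that were set aside read 7.68 and 7.81, within the control range. The log2 change was 0.66 ± 0.10 at 100 nM (1.58-fold; adjusted p = 0.00104) and 0.65 ± 0.12 at 10 nM (1.57-fold; adjusted p = 0.00374), and between the doses it was 0.00 (95% confidence interval -0.26 to 0.27; adjusted p = 1).

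The weaker Lef1 probe set did not give the same picture. It lay within 0.02 of 5.85 in 8 of the 15 arrays, a constant low value. At 10 nM, where the other probe set rose, this one read 5.55, 5.85 and 5.65, a change of -0.18 ± 0.16 (adjusted p = 0.547). At 100 nM it ran from 5.85 to 6.73 and changed by 0.36 ± 0.13 (adjusted p = 0.104), with 4 of 6 arrays above every control. The call of Lef1 therefore rests on 1 of its 2 tested probe sets.

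Axin2, the feedback inhibitor and target gene, was low at 10 nM and not at 100 nM. Controls ran from 7.28 to 7.73 with a median of 7.44. The 10 nM arrays read 6.50, 6.80 and 6.73, below every control and every 100 nM array. At 100 nM the range was 7.41 to 8.49 with a median of 7.46, and replicates 3 and 6 (8.49 and 8.17) lay above every control while the other 4 lay within the control range. Axin2 fell 1.75-fold at 10 nM (log2 change -0.81 ± 0.22; adjusted p = 0.0302), changed by 0.25 ± 0.18 at 100 nM (95% confidence interval -0.13 to 0.64; adjusted p = 0.408), and was 2.08-fold higher at 100 nM than at 10 nM (1.06 ± 0.22; adjusted p = 0.036).

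The Axin2 calls depended on single arrays and settings, and the gene has 1 probe set. The 10 nM call was lost in 4 of the 15 leave-one-out fits, each without a single array (control replicate 1, or 10 nM replicate 1, 2 or 3; adjusted p up to 0.131), and the call between doses in 8 of 15 (control replicates 3, 4 and 5, each 10 nM replicate, and 100 nM replicates 2 and 6; adjusted p up to 0.193). Of the arrays set aside, replicate 4 read 6.52, like the 3 compared, and replicate 5 read 8.01, above every control. With both included the change at 10 nM was -0.57 (adjusted p = 0.179). The 10 nM call was also lost without the filter on low values. Of the 3 arrays compared, the 1 with a stated RNA integrity number, replicate 3, read 6.73, between the other 2. Whether RNA quality plays a part was not tested.

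For Fzd1 and Lef1 the calls at both doses held in all 15 leave-one-out fits. A division of the arrays into replicates 1, 2 and 6 and replicates 3, 4 and 5, which no label names, was also examined. It was seen in earlier work on these same arrays, so the fits within its parts are a description and no independent support. At 100 nM the change of Fzd1 was 0.80 within the first set (adjusted p = 0.061) and 0.93 within the other (adjusted p = 0.0224), and that of Lef1 was 0.53 (adjusted p = 0.151) and 0.79 (adjusted p = 0.0265). Each of these 100 nM values rests on 3 arrays against 3. At 10 nM the first set, with 2 arrays at that dose, gave 0.59 for Fzd1 (adjusted p = 0.128), 0.68 for Lef1 (0.101) and -0.95 for Axin2 (0.116), and the other set holds 1 array at 10 nM.

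To show what lies upstream of the 3 genes that changed, the 250 bases before their RefSeq start sites (assembly GRCr8) were read from the RefSeq promoter table, which held 7 of the 10 members (Fzd1, Fzd4, Fzd7, Fzd8, Sfrp2, Axin2 and Lef1). They are printed 5′ to 3′ along the gene, and capitals mark the letters CTTTGA or their reverse complement TCAAAG, the core of the site that TCF/LEF factors bind.
Axin2, GRCr8 chr10:94398535-94398784, + strand: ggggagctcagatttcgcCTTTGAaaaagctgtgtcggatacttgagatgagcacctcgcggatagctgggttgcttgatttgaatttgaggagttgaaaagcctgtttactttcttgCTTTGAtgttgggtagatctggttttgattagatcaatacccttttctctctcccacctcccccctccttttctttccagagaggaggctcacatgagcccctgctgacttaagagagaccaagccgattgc
Fzd1, GRCr8 chr4:30264824-30265073, + strand: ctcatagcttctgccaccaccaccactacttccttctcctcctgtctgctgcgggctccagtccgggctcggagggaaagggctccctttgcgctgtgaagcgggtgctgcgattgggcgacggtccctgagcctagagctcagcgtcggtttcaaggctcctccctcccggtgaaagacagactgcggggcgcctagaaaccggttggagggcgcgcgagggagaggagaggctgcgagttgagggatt
Lef1, GRCr8 chr2:222340463-222340712, + strand: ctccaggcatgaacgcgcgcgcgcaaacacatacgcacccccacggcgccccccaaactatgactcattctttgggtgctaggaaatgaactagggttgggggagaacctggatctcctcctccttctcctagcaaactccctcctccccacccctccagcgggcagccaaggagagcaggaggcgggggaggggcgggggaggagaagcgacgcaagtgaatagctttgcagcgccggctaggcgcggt
The Axin2 window held CTTTGA at 232 and 132 bases before the start, and the Fzd1 and Lef1 windows held no match on either strand. Among the other 4 members only Fzd7 had a match, with TCAAAG at 248 and CTTTGA at 230 bases before the start. Over all 33469 promoter windows of that length, 13.9% held a match. The letters TGACG or CGTCA, a short site of cyclic AMP response factors, were in none of the 7 windows and in 18.2% of all windows. A match is a description of the letters only.

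The other 3 measured Frizzled genes did not pass the test in any comparison. Fzd8 came nearest. Its controls ran from 9.11 to 9.42 with a median of 9.29, its 10 nM arrays read 9.01, 8.47 and 8.80, and its 100 nM arrays ran from 8.15 to 9.55 with a median of 8.69. All 3 arrays at 10 nM and 5 of 6 at 100 nM lay below every control, while 100 nM replicate 1, at 9.55, lay above every control. The change was -0.57 ± 0.20 at 100 nM (95% confidence interval -0.999 to -0.134; adjusted p = 0.0904) and -0.51 ± 0.25 at 10 nM (adjusted p = 0.228). Without 100 nM replicate 1 the change was -0.74 and passed (adjusted p = 0.00869). It also passed within replicates 3, 4 and 5 at 100 nM (-0.90, adjusted p = 0.043), and at 10 nM when only those 2 groups were fitted (adjusted p = 0.0359). Within replicates 1, 2 and 6 alone it did not pass at either dose. Of 15 leave-one-out fits 1 passed at 100 nM, with adjusted p up to 0.177 in the rest, and none passed at 10 nM. No other setting gave a call of Fzd8.

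Fzd2, another Frizzled receptor gene, and Fzd4, whose product is also the receptor of norrin in vessels, had overlapping groups and small changes. Fzd2 ran from 9.94 to 10.53 in controls, 10.20 to 10.33 at 10 nM and 10.02 to 10.49 at 100 nM, so the groups overlapped. Its change at 100 nM was 0.04 with a 95% confidence interval of -0.19 to 0.27. Fzd4 ran from 9.29 to 9.45, 9.34 to 9.54 and 9.26 to 9.76, and changed by 0.07 at 100 nM (-0.09 to 0.24). A weak Fzd4 probe set, near 2.96 in 9 of the 15 arrays, reached 3.21, 3.43 and 3.48 in 100 nM replicates 1, 2 and 5 (adjusted p = 0.225).

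None of the 3 Sfrp genes passed the test, and they differed in how tightly they were measured. Sfrp2 had the narrowest interval. It ran from 13.49 to 13.94 in controls, 13.65 to 13.81 at 10 nM and 13.37 to 14.07 at 100 nM, with a change of -0.11 at 100 nM (95% confidence interval -0.35 to 0.12) and -0.09 at 10 nM (-0.37 to 0.20). Its other probe set gave -0.11 and -0.15. Both probe sets thus showed overlapping groups and small changes of the same sign.

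Among the probe sets that stand for the members, that of Sfrp4 varied most between replicates. Controls ran from 10.17 to 11.33 with a median of 10.54, the 10 nM arrays read 10.65, 12.17 and 11.67, and the 100 nM arrays ran from 9.66 to 12.28 with a median of 10.01. At 100 nM, 4 of 6 arrays lay below every control while replicate 1, at 12.28, lay above every control. The change was -0.23 ± 0.41 at 100 nM (adjusted p = 0.766) and 0.83 ± 0.50 at 10 nM (adjusted p = 0.343). Between the doses it was -1.06 (95% confidence interval -2.13 to 0.01; adjusted p = 0.411). The other Sfrp4 probe set was at the array floor of 2.11 in all 15 arrays and was not tested.

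The probe sets of Sfrp1 disagreed. By the probe set that stands for it, Sfrp1 ran from 8.92 to 10.03 in controls, read 9.58, 10.08 and 9.98 at 10 nM and ran from 9.30 to 10.12 at 100 nM, with changes of 0.36 ± 0.22 and 0.21 ± 0.18 (adjusted p = 0.359 and 0.503 at 10 and 100 nM). By the other tested probe set, controls ran from 6.00 to 7.81, the 10 nM arrays read 6.12, 5.55 and 5.62, and the 100 nM arrays ran from 5.14 to 7.71. That change was -1.62 ± 0.51 at 10 nM (adjusted p = 0.0577) and -0.59 ± 0.41 at 100 nM (adjusted p = 0.398). The remaining probe set was at the floor in all 15 arrays. The changes of the 2 tested probe sets had opposite signs at both doses, and neither passed.

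**Figure D2:**
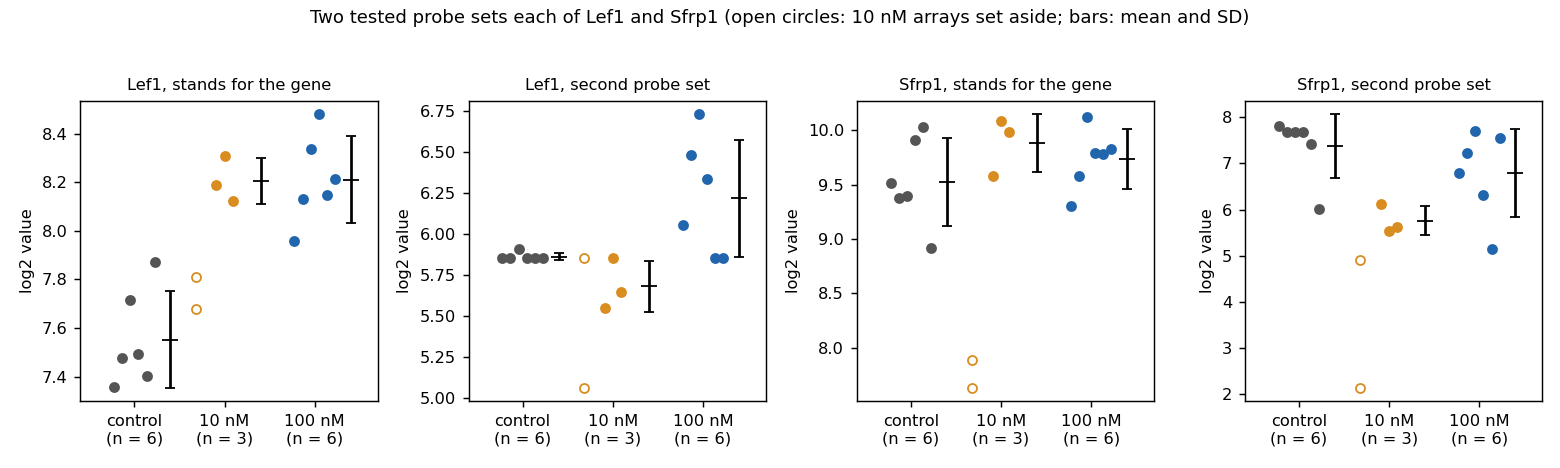
Log2 values of the 2 tested probe sets of Lef1 and of Sfrp1 are plotted by array and group, with the mean and SD beside the points and open circles for the arrays set aside. At 10 nM the Lef1 probe set that stands for the gene is raised (8.12 to 8.31) while the other is at or below its control value, and of the Sfrp1 probe sets 1 has a positive mean change (0.36) and the other a negative one (-1.62).

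**Figure D3:**
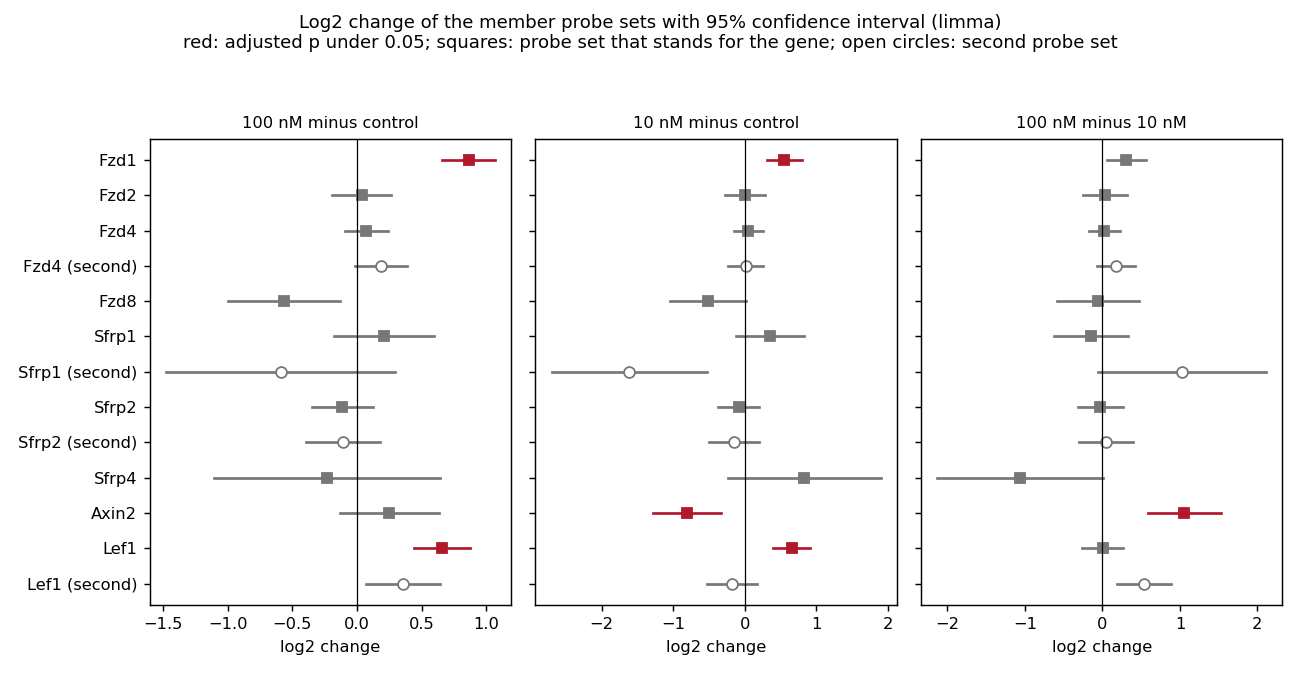
The log2 change of the 13 tested member probe sets is plotted for the 3 comparisons, with the 95% confidence interval as a line and red where the adjusted p is under 0.05. Fzd1 and Lef1 are red in both comparisons with control, and Axin2 in 10 nM against control (-0.81) and 100 nM against 10 nM (1.06).

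The genes whose values followed each member most closely over the 15 arrays, by Pearson's r, are given as a description, since all share the same arrays and dose groups. For Fzd1 they were Irak1bp1 (r = 0.96), Kitlg (0.94) and Ywhag (0.94), for Lef1 Rhoj, Sphkap and Tgfbi (0.94 each), and for Axin2 Ncoa3 (0.89), Eps8 (0.85) and Rnf150 (0.85). After group means were subtracted they were Mbtps1, Tmx4 and Ube2s for Fzd1 (0.90, 0.85 and 0.84), Ap5b1, Zfp334 and Pole for Lef1 (0.85, 0.84 and 0.82), and Pdzd4, Daam2 and Rimbp2 for Axin2 (0.88, 0.87 and 0.83). Different genes thus headed each list once the dose groups were removed. For Sfrp4, Col9a3 and Aldh1a3 led both lists (0.94 and 0.92, then 0.92 and 0.91), and for Sfrp2, Postn led both (0.86 and 0.90). For Fzd8 the leading gene was Cbr4 (0.90), then Chrac1 (0.95), for Fzd2 Selenow (0.82), then Gnai2 (0.93), for Fzd4 Cox17 (0.88), then Asb5 (0.94), and for Sfrp1 Atp6ap2 (0.85), then P3h3 (0.87).

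Of 104 other Wnt pathway genes listed by role, 82 had a single-gene probe set and 69 were tested. At 100 nM 13 of the 69 rose (18.8%) and 3 fell (4.35%), and at 10 nM 10 rose (14.5%) and 7 fell (10.1%). Over all genes, 8.15% rose and 3.98% fell at 100 nM, and 5.54% and 3.13% at 10 nM, so the share that fell at 100 nM was near the background. The list was chosen with earlier results of these data known, so higher shares in it are a description and no independent evidence. The counts by role that follow rest on 2 to 20 genes each and are to be read against the same shares. The median log2 change of the 69 was 0.09 and 0.11, beside 0.02 and 0.06 over all genes. Between the doses 1 gene, Lrp6, differed by the probe set that stands for it, being higher at 100 nM. A second Wnt2 probe set also passed there, as given below.

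Among 11 tested ligand genes, 5 rose at 100 nM and 3 at 10 nM, and none fell. Wnt2 was below the filter value of 2.28 in all 6 controls by the probe set that stands for it. With that value as the control level, its mean rise was 16.5-fold at 100 nM and 11.3-fold at 10 nM. Its other probe set rose less, 9.18-fold and 4.12-fold (3.20 and 2.04 log2 units). That probe set was also 1.16 log2 units higher at 100 nM than at 10 nM (adjusted p = 0.0246). The first changed there by 0.55 (adjusted p = 0.472). Wnt4 (1.85 and 1.49) rose at both doses, as did Wnt9a (2.84-fold and 2.83-fold). Wnt16 (2.48 log2 units) and Wnt5a (0.94) rose at 100 nM, and at 10 nM their changes of 1.31 and 0.38 did not pass. Porcn, the enzyme gene for the lipid tail that Wnt ligands need, rose by 0.41 at 100 nM, and 6 leave-one-out fits ended that call (control replicate 1, 4 or 5, or 100 nM replicate 2, 5 or 6; highest adjusted p = 0.0711).

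Of 10 other receptor and co-receptor genes none passed at 100 nM, and 1 fell at 10 nM. That was Lrp6, which partners Frizzled receptors: 8.31 ± 0.30 in controls, 6.45 ± 0.40 at 10 nM and 7.95 ± 0.66 at 100 nM (SD, n = 6, 3 and 6). Its 3 compared arrays at 10 nM lay below all other arrays compared, a fall of 3.63-fold (adjusted p = 0.00255). Lrp6 was 2.84-fold higher at 100 nM than at 10 nM (adjusted p = 0.0412). That call held in 4 of 15 leave-one-out fits, those without control replicate 1 or 6 or 100 nM replicate 4 or 5. In the rest the adjusted p was as high as 0.282. Axin2 among the members also had its lowest mean at 10 nM.

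Of 7 secreted or membrane inhibitor genes beside the 3 Sfrp members, 2 rose and 1 fell at 100 nM, and 2 rose at 10 nM. Frzb, a further Sfrp family gene, rose 2.03-fold at 100 nM (1.02 ± 0.20; adjusted p = 0.00571), and its other probe set rose by 1.11. At 10 nM its change of 0.37 did not pass. Apcdd1, a membrane inhibitor of Wnt signalling, rose 2.74-fold at 100 nM (adjusted p = 0.00337) and 2.18-fold at 10 nM (adjusted p = 0.0382), where 9 leave-one-out fits ended the call, those without control replicate 1, 3, 4, 5 or 6, any 10 nM array or 100 nM replicate 6 (highest adjusted p = 0.131). Dkk3, a Dickkopf family gene, rose by 0.63 at 10 nM. Dkk2, whose product blocks Lrp co-receptors, fell by 0.75 at 100 nM, from a weak 3.12 ± 0.53 to 2.37 ± 0.10, near the floor.

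Of 20 cytoplasmic genes 3 rose and 1 fell at 100 nM, and 3 rose and 3 fell at 10 nM. The feedback inhibitor genes Nkd1 and Nkd2, which bind Dishevelled, rose at both doses, Nkd1 by 0.74 and 0.60 and Nkd2 by 1.02 and 1.11 at 100 and 10 nM. All 3 Nkd1 probe sets rose at both doses. Prickle1, a planar polarity gene, rose by 0.62 at 100 nM. Daam1, a formin of the non-canonical branch, fell by 0.35 at each dose. Dact3, of the family of Dishevelled-binding Dact genes, rose by 0.41 at 10 nM, and its change of 0.26 at 100 nM did not pass (adjusted p = 0.0796). The destruction complex kinase gene Gsk3b fell at 10 nM from 8.78 ± 0.13 to 7.92 ± 0.16, with 8.58 ± 0.34 at 100 nM. The difference between the doses did not pass for either gene (adjusted p = 0.663 and 0.06). Dact1, a Dishevelled-binding gene, fell by 1.24 at 10 nM by 1 probe set while its other probe set changed by 0.01 (adjusted p = 0.986).

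Of 10 nuclear genes 2 rose and 1 fell at each dose. Tcf7, of the same family as Lef1, rose 1.76-fold at 100 nM (0.82 ± 0.09, adjusted p = 8.01e-05) and 1.67-fold at 10 nM (adjusted p = 0.000986). In the arrays compared, all with Insl3 lay above every control. Tcf7l2 fell by 0.28 at 100 nM, and Bcl9l, a beta-catenin cofactor gene, fell by 0.65 at 10 nM. Pygo2, a cofactor gene, rose by 0.27 and 0.32. Some probe sets of this family that do not stand for their gene had their lowest mean at 10 nM. A Tcf7l1 probe set fell by 1.60 there (adjusted p = 0.000917) while its main probe set changed by 0.15 (adjusted p = 0.47), and 1 of 5 of Tcf7l2 fell by 2.50 while its main probe set changed by -0.12. At 100 nM these probe sets changed by -0.54 and -0.69, which did not pass (adjusted p = 0.0886 and 0.146). These probe sets were named after their values were seen, and the difference between probe sets of a gene was not tested.

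Of 13 tested genes listed as Wnt targets, Nkd1 and Tcf7 rose at both doses, and Ccn4 (-0.66) and Id2 (-0.96) fell at 10 nM. Axin2 and Ccn4 thus fell at 10 nM while Lef1, Nkd1 and Tcf7 rose there. The classic targets Ccnd1 and Myc did not pass by their main probe sets at either dose (0.21 and -0.12 at 100 nM), and a weaker Ccnd1 probe set rose at both (0.40 and 0.39). Some 10 nM calls of these pathway genes ended when a single array was left out: Dact1 and Id2 without 10 nM replicate 3 (adjusted p = 0.0632 and 0.0724), Dkk3 without replicate 1 or 2 (up to 0.0709), and Daam1 without replicate 1 or 3 (up to 0.0996). Nkd1 ended without any 10 nM array or control replicate 1, 3 or 5 (up to 0.12), and Dact3 without any 10 nM array or control replicate 3, 4 or 5 (up to 0.114). Without control replicate 3, 4 or 5 the calls of Bcl9l and Pygo2 ended as well, as they did without 10 nM replicate 3, and without replicate 2 for Bcl9l (up to 0.154) and replicate 1 for Pygo2 (up to 0.196). At 100 nM the Pygo2 call ended without control replicate 3, 4 or 5 or 100 nM replicate 1, 5 or 6 (up to 0.0686).

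**Figure D4:**
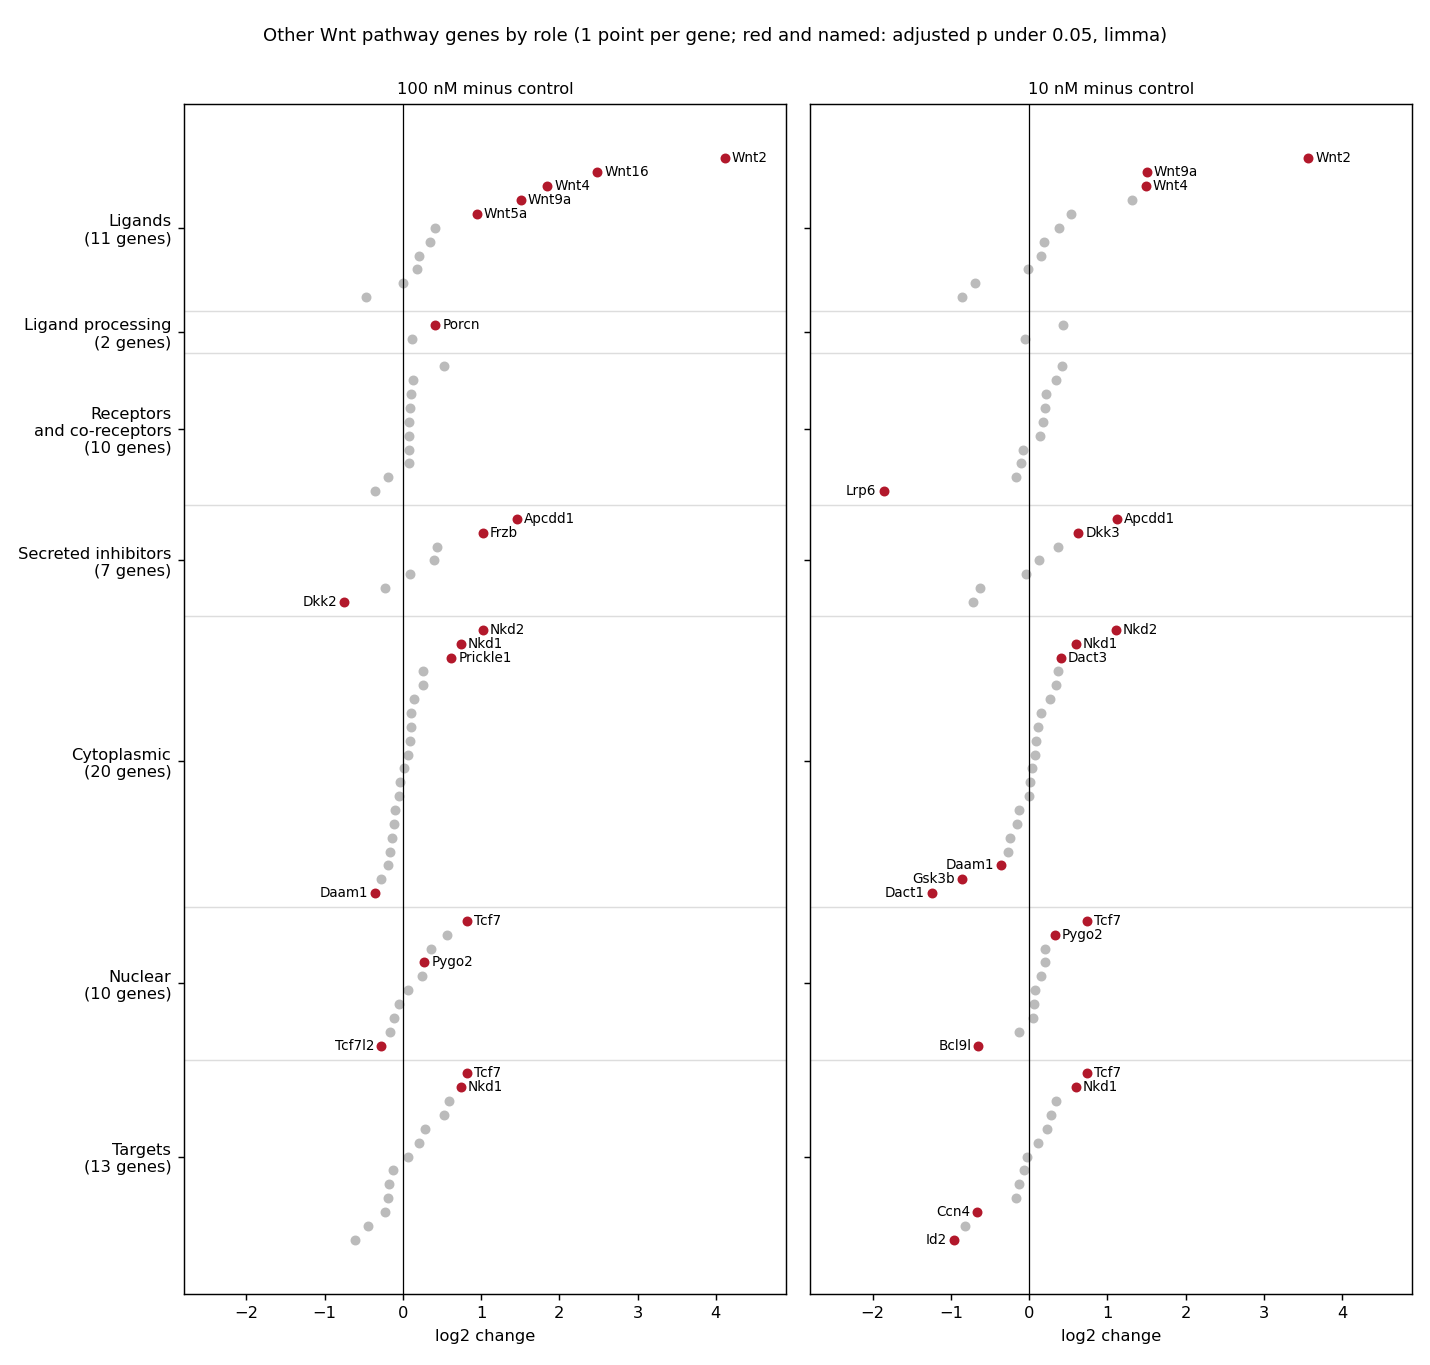
The log2 change against control of the 69 other pathway genes is plotted by role for 100 nM and 10 nM, with 1 point a gene and red, named points where the adjusted p is under 0.05. Wnt2, a ligand gene, has the highest point in both panels (fitted at 4.12 and 3.57), and 3 genes are called below 0 at 100 nM and 7 at 10 nM.

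Markers of several cell types moved with some of these results. Of 10 tested endothelial markers 3 rose at each dose (Kdr, Cldn5 and Ramp2), with a list mean of 6.44 to 6.69 in controls, 6.72 to 6.98 at 10 nM and 6.77 to 7.34 at 100 nM, and the other 7 did not pass. The endothelial markers did not share a direction: Emcn, at 7.82 in controls, changed by -0.42 at 100 nM and -0.63 at 10 nM, and Esam, at 6.62, by -0.37 and -0.16. Pecam1, Tie1 and Erg were low in controls (2.95, 2.22 and 2.92), and Tek, Flt1 and Vwf were below the filter. Fzd1 and Lef1 rose in the same arrays, and a part of endothelial cells in their rise was not tested. The mean of 13 mesenchymal markers was 11.23 to 11.49 in controls and 11.44 to 11.98 at 100 nM. Of the 13, 2 rose at 100 nM (Twist2 by 2.83 and Hoxa11 by 0.31) and none fell. A part of mesenchymal cells in the rise of Fzd1 and Lef1 was not tested. Of 10 tested leukocyte markers 4 fell at 100 nM (Ptprc, Cd68, Mrc1 and Lcp1) and none at 10 nM, with a list mean of 9.95 in controls, 9.90 at 10 nM and 9.56 at 100 nM, and their part in the rise of Fzd1 and Lef1 was not tested either. Of 9 erythroid markers 7 fell at 100 nM. With the erythroid list mean as a covariate, Fzd1 changed by 0.84 (adjusted p = 0.0119) and Lef1 by 0.80 (adjusted p = 0.0176) at 100 nM, and Axin2 by -0.76 at 10 nM (adjusted p = 0.0472). That mean was itself lower at 100 nM, so such a fit cannot tell blood content and Insl3 treatment apart.

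Beside the low Axin2 at 10 nM, the mesenchymal gene Prrx1 also fell there, with means of 9.79 in controls, 8.62 at 10 nM and 9.70 at 100 nM. It was the only 1 of 13 tested mesenchymal markers that passed at 10 nM. The others went both ways without passing, such as Twist2 (1.07, adjusted p = 0.0927) and Col1a2 (-0.12, adjusted p = 0.248). The mean of 13 mesenchymal markers was 11.23 to 11.49 in controls and 11.42 to 11.55 at 10 nM, and that of 6 smooth muscle markers was 8.09 to 8.70 and 8.67 to 8.92. Of those 6, Myh11 rose at 10 nM (2.65 log2 units, adjusted p = 0.0279), while Tagln (-0.43, adjusted p = 0.0299) and Mylk (-0.35, adjusted p = 0.0189) fell. Of 13 skeletal muscle markers 1 fell at 10 nM, the weak Musk (-0.51, adjusted p = 0.0121), and none rose. Skeletal muscle markers ran from 11.30 to 11.66 and from 11.35 to 11.50, and leukocyte markers from 9.83 to 10.13 and from 9.57 to 10.18. Their part in the Axin2 result was not tested.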

How the data were processed

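Gene expression was measured with 1 Affymetrix rat expression array per biological replicate, on cRNA made from 150 ng total RNA, per the labels' protocols. The authors made the deposited log2 expression values with GCRMA, per the submitters' processing notes, which corrects background by probe sequence, normalizes arrays and summarises probes. Its version and the base of the logarithm are not given in the sources used here. Values ran from 2.11 to 16.9, the range of log2 GCRMA output, with 36.1% to 39.2% of probe sets of each array within 0.1 of the floor, so changes that start there are compressed.

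Probe sets were named through GEO's platform annotation, with 20832 of 31099 carrying 1 gene, 436 several and 9780 unlisted, beside 57 manufacturer's controls. Symbols were updated through the RefSeq gene table of GRCr8. Probe sets above 2.28 (the 40th percentile) in at least 3 of the 15 arrays were tested, which left 18938. The 3 groups were fitted together with limma 3.58.1 in R 4.3.3 (lmFit, eBayes), 2-sided, with Benjamini-Hochberg adjustment over all tested probe sets. The script was tested on simulated data.

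All 10 members were named, and of the other pathway genes each that passed against control. The 3 closest genes per member were taken by Pearson's r. Members, lists and motifs were chosen with earlier results of these data known. Replicate numbers were checked as pairs: of 12 same-numbered pairs, 6 had correlated deviations (r over 0.1, range -0.07 to 0.20). Pairs with different numbers reached -0.37 and 0.35, and 2 of 15 arrays correlated best with their own number. The numbers were not treated as pairing. Alternatives were other filters, normalizations, arrays, variance models, a replicate block, covariates and leaving out each array. Arrays correlated at r of 0.978 to 0.996.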

Additional observations from a re-analysis of the deposited data

Results flagged for a closer look

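In 9 of 74 groups of 6 arrays tested, 1 array stood apart from the other 5 (Dixon's test at the 95% level), where chance flags about 1 in 20. Control replicate 3 was such an array for Daam1 (10.28, others from 10.52), Prickle1 (9.24, others from 9.60), Tcf7l2 (11.23, others from 11.44) and the weak Lef1 probe set (5.91, the others all at 5.85). Control replicate 6 was low for the Sfrp1 probe set that does not stand for the gene (6.00, others from 7.42) and for Wnt16 (5.46, others from 7.38), and high for Bcl9l (6.38, the others all at 6.21). Control replicate 4 was high for the weak Fzd4 probe set (3.045, others up to 2.97), and 100 nM replicate 3 was low for Dkk2 (2.17, the others at 2.41). For the weak Lef1, Bcl9l and Dkk2 probe sets the other arrays shared a constant low value, so a small step is enough to stand out.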

How the results depend on the processing

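Of 711 alternative values of the 9 members, 637 kept their direction and side of the threshold, 24 kept the direction and lost the call, 3 gained a call and 47 changed sign, none of them where the main value passed. Replicates 1, 2 and 6 alone (3 control, 3 100 nM and 2 10 nM arrays) gave 0 members called in each comparison, against 2, 3 and 1 (100 nM and 10 nM against control, then 100 nM against 10 nM). That setting gave 4 other pathway genes at either dose, against 16 and 17, and 200, 559 and 134 probe sets over the array, against 2065, 2004 and 271. With the lowest-mean probe set standing for each gene, 1 member passed at 100 nM. All 17 arrays gave 1008 probe sets at 100 nM, and the erythroid mean as a covariate gave 662 there and 157 between the doses. Between the doses no member passed (0) without the filter, with all 17 arrays, with only the 2 groups fitted or with the erythroid covariate; for Axin2 the adjusted p then ran from 0.0566 to 0.138. Other pathway genes called between the doses, 1 in the main test, were 0 without the filter, with all 17 arrays or with only the 2 groups, and 2 with the 60th percentile filter, quantile normalization, shifted medians, the replicate block or the division of replicates as a term. Probe sets called between the doses were 22 without the filter, 3 with only the 2 groups, 429 with the replicate block and 531 with the division as a term. The cause was not tested.

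The replicate block left the members called at 2, 3 and 1; 2 of 15 arrays correlated best with their own number. The 10 nM change of Fzd2 was -0.109 with the replicate block, -0.021 with quantile normalization, -0.011 with shifted medians, -0.028 with the division, -0.127 in replicates 1, 2 and 6 and -0.035 with the erythroid covariate. With the replicate block the 10 nM change of Fzd4 was -0.025, and between doses Fzd8 was 0.103 and Lef1 -0.049. With all 17 arrays Fzd4 was -0.132 and Sfrp1 -0.491 at 10 nM, and Sfrp1 0.701 and Sfrp2 0.188 between doses. With the erythroid covariate Fzd2 was -0.158, Fzd4 -0.111 and Sfrp2 0.134 at 100 nM, and Fzd2 -0.123, Fzd4 -0.120, Sfrp1 0.220 and Sfrp2 0.170 between doses. Sfrp2 was 0.014 at 100 nM in replicates 3, 4 and 5, and Sfrp4 0.219 in replicates 1, 2 and 6, where Fzd8 was 0.347 and Lef1 -0.148 between doses. With the division as a term these last were 0.0016 and -0.0047.

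Without 1 array, members called ranged from 2 to 3, 2 to 3 and 0 to 1, other pathway genes from 14 to 19, 9 to 18 and 0 to 3, and probe sets from 1442 to 2616, 1020 to 2495 and 3 to 619. Leave-one-out values of the members that changed sign ranged, for Fzd2, from -0.026 to 0.094 at 100 nM, -0.059 to 0.058 at 10 nM and -0.0052 to 0.089 between doses. For Fzd4 they ranged from -0.014 to 0.085 at 10 nM and -0.038 to 0.086 between doses. Between doses Fzd8 ranged from -0.225 to 0.068, Sfrp2 from -0.102 to 0.038 and Lef1 from -0.049 to 0.055. Replicates 3, 4 and 5 hold 1 array at 10 nM, so no 10 nM value was computed in them. Probe sets near the floor (Fzd4, Sfrp1 and Sfrp4 have 1 each) limit what a change there could show.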

Other observations

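In the 10 nM arrays that the submitters set aside, replicates 4 and 5, Fzd1 read 11.08 and 11.34, Lef1 7.68 and 7.81, and Axin2 6.52 and 8.01. Sfrp1 read 7.63 and 7.89, below the lowest of the 15 arrays compared (8.92), and its other tested probe set read 2.15 and 4.91, below the lowest there (5.14). Fzd4 read 9.02 and 8.92, also below all arrays compared, where the lowest was 9.26. Sfrp2 read 13.53 and 12.84, Sfrp4 10.94 and 10.12, Fzd2 10.28 and 10.26, and Fzd8 8.80 and 8.92. Their labelled cRNA yields were 25.66 and 33.68 µg, against 48.6 to 102.69 µg in the arrays compared.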
